A study of Rattus norvegicus with 48 samples.

Results

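A set of 8 miRNA names tied to immune cells and microglia was followed through small RNA libraries of the rat amygdala and ventral striatum: miR-146a-5p, miR-146b-5p, miR-21-5p, miR-142-5p, miR-142-3p, miR-155-5p, miR-223-3p and the precursor name mir-155. They were picked out by name from the 1063 names of the normalized table, with earlier results of these data known, and all 8 were present (7 mature names of 612 and 1 precursor name of 451). Of these, mir-155, miR-155-5p and miR-142-3p are in lists of the study. It listed mir-155 and miR-155-5p from these libraries together with a microarray of the same RNA pools, and miR-142-3p from these libraries alone. For mir-155 and miR-155-5p its threshold was unadjusted, 1-tailed, looser than those used here and required on both platforms. For miR-142-3p the threshold was unadjusted too. The microarray values are not used here. The 48 libraries came from 42-day-old Long Evans rats, an outbred strain. Dams were injected on gestational day 12 with ethanol (ethanol-exposed offspring) or with the same volume of saline (control offspring), and from weaning on day 21 the offspring lived with littermates of the same sex (non-enriched) or with unfamiliar rats of the same age and sex from an untreated dam (socially enriched). Each of the 4 groups was represented by 6 libraries per region, 3 of females and 3 of males, and each library was made from RNA of 3 rats of one sex. All rats went through a test of social interaction and were anesthetized before tissue was taken, so every group shares these steps. The regions were dissected whole and hold all their cell types, so a change in cell number and a change per cell cannot be told apart. Levels are given as RPM (reads per 1000000 reads assigned to mature names or, for mir-155, to precursor names).

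miRNAs are short RNAs that guide silencing complexes to partly complementary messenger RNAs, mainly through the seed, the bases near their 5′ end. Among the names followed here, miR-155 rises in activated macrophages and microglia. miR-146a is induced by NF-κB signaling, and miR-146a and miR-146b can dampen Toll-like receptor signaling. miR-142 and miR-223 are made mainly by blood-forming lineages, miR-223 above all by myeloid cells. miR-21 is widely expressed and rises in reactive glia. In brain tissue, miR-142 and miR-223 are therefore often read as traces of microglia or of blood cells.

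The sequences are shown so that shared seeds can be seen. All 7 mature names matched the RefSeq table of rat miRNAs (build GRCr8), and mir-155 matched its hairpin there. The seed, bases 2 to 8, is in capitals:
miR-155-5p: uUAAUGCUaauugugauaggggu
miR-146a-5p: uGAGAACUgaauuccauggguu
miR-146b-5p: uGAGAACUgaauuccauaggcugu
miR-142-5p: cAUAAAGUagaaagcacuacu
miR-142-3p: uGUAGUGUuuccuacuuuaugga
miR-223-3p: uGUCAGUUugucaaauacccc
miR-21-5p: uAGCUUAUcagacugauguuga
The 7 sequences carry 6 seeds, because miR-146a-5p and miR-146b-5p share one. Over the 22 bases of miR-146a-5p the pair differed at G18A and U21C (miR-146a-5p base first, counted from its 5′ end), and miR-146b-5p had 2 more bases at its 3′ end. Reads that end before base 18 cannot separate them, and how the authors split such reads is not given in the sources used here. miR-142-5p and miR-142-3p are the arms of 1 hairpin and have different seeds.

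In that build, miR-155-5p lies at chr11:37261117-37261139 on the plus strand, within Mir155hg, the long noncoding host gene of miR-155. miR-146a-5p lies at chr10:28350053-28350074 on the minus strand, within the span of LOC134480673, and miR-146b-5p lies at chr1:255144874-255144897 on the plus strand, within the span of C1h10orf95. miR-142-5p (chr10:73055119-73055139) and miR-142-3p (chr10:73055155-73055177) lie on the plus strand within the span of Tspoap1. miR-223-3p lies at chrX:65151450-65151470 on the plus strand within the span of LOC120099372, and miR-21-5p at chr10:71902653-71902674 on the minus strand, outside any other gene of the table.

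Libraries held 363141 to 1370421 mature reads (median 977868), counted by taking the smallest common step of the low values as 1 read. Depth was more uneven in the amygdala (363141 to 1287654) than in the ventral striatum (739467 to 1370421), and the 7 libraries under 600000 reads were all from the amygdala. A count of 3 reads, taken here as the limit up to which a level is not told apart from 0, was worth 2.33 to 8.26 RPM in the amygdala and 2.19 to 4.06 RPM in the ventral striatum, and this limit covers counting error only. Brain markers were abundant (means of 2311 RPM for miR-124-3p and 31733 RPM for miR-9a-5p), while red blood cell markers were low (3 of 4 found, summed range 8.96 to 56.9 RPM in the amygdala and 14.8 to 53.0 RPM in the ventral striatum). The choroid plexus miRNA miR-204-5p ranged from 3085 to 122453 RPM. It was over 10000 RPM in 13 libraries, all of the amygdala, and over 100000 RPM in 2 of them, both of ethanol-exposed, non-enriched rats.

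The 8 names spanned a very wide range of levels. miR-146b-5p was the 10th of the 612 mature names by mean level, at 27491 ± 6608 RPM (SD, n = 48), and ranged from 17498 to 40239 RPM. miR-146a-5p, the better known inhibitor of Toll-like receptor signaling, had 1325 ± 256 RPM, rank 72, and ranged from 667 to 2078 RPM. miR-21-5p had 612 ± 152 RPM, rank 95, and ranged from 356 to 1022 RPM. miR-142-5p had 226 ± 41.8 RPM, rank 141, and ranged from 154 to 350 RPM. These 4 stood in the order miR-146b-5p, miR-146a-5p, miR-21-5p, miR-142-5p in each of the 48 libraries, and miR-142-5p stood above miR-155-5p in each as well.

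The other 4 names were close to the limit of detection. The precursor name mir-155 had 5.50 ± 1.73 RPM (n = 48), rank 309 of the 451 precursor names, which was 287 reads over all libraries and 1 to 14 reads in any one. miR-155-5p had 4.39 ± 2.21 RPM, rank 366, from 195 reads in all, and exceeded 3 reads in 27 of 48 libraries. miR-142-3p had 2.97 ± 1.85 RPM, rank 391, from 134 reads in all, and exceeded 3 reads in 14 of 48 libraries. miR-155-5p was above miR-142-3p in 34 of 48 libraries, so the order of these neighbors was not fixed. miR-223-3p was listed at 0 in 40 of 48 libraries and never exceeded 2 reads, with 11 reads in all. Within a region, the variance of the read numbers divided by their mean was 0.82 to 0.88 for mir-155, 0.97 to 1.08 for miR-155-5p and 0.91 to 1.22 for miR-142-3p, close to the value of 1 that counting alone gives. With means this low, a ratio near 1 does not exclude further spread. For miR-146b-5p, miR-146a-5p, miR-21-5p and miR-142-5p the same ratio was between 7.98 and 3612. The ratio was taken over libraries of unequal depth and rises with the mean, so it does not compare the spread of scarce and abundant names. In RPM, the SD of these 4 abundant names was 12.8% to 21.9% of the mean within a region.

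**Figure D1:**
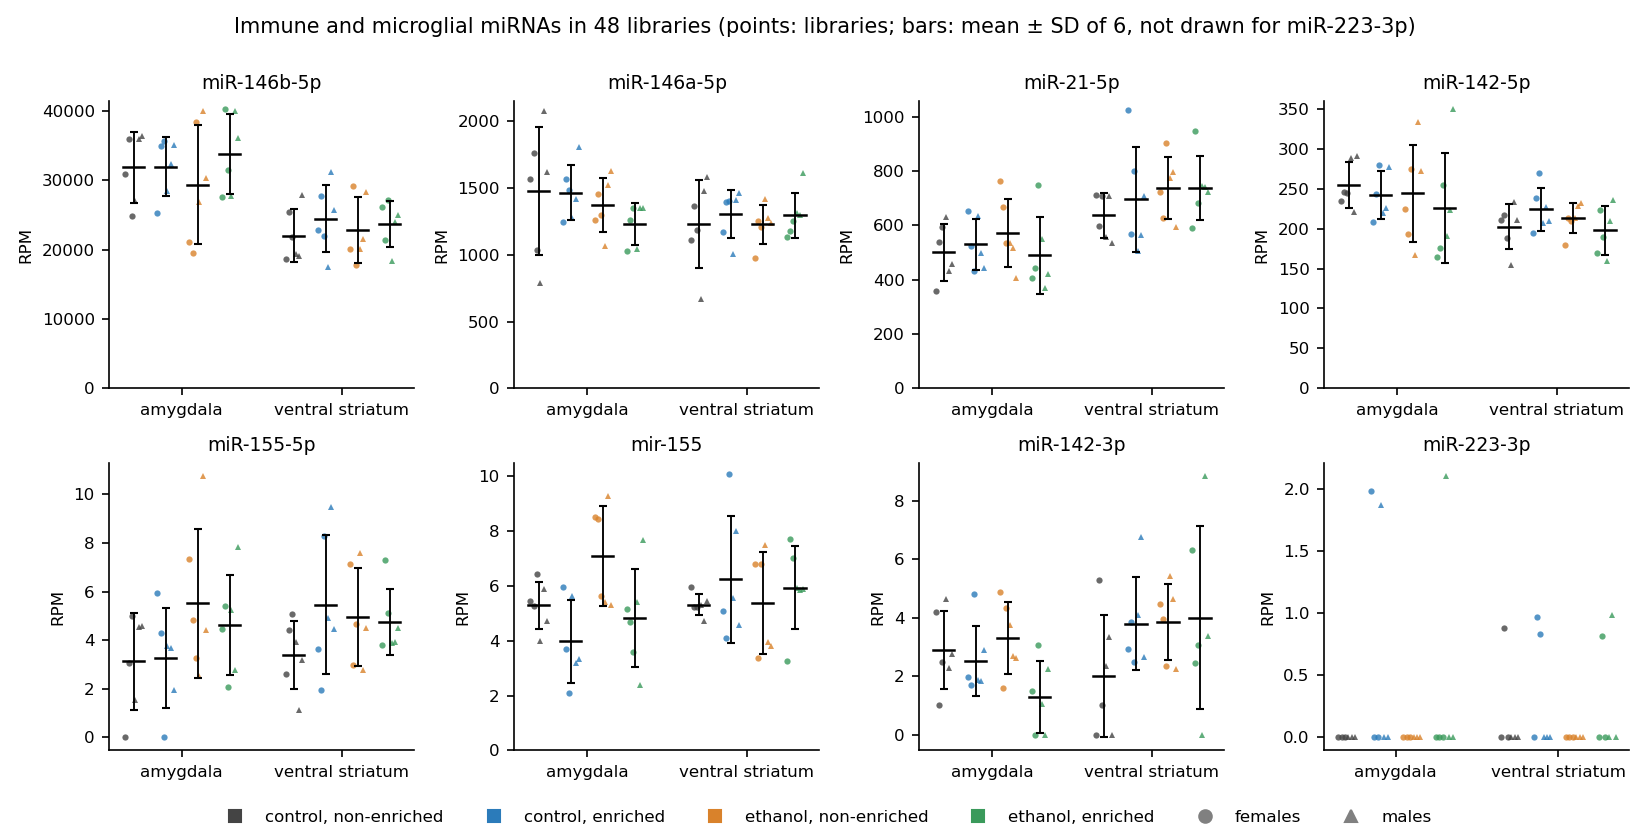
RPM (linear axis) of each of the 8 names in the 48 libraries, by region and by exposure and housing (color); circles are female and triangles male pools, and black bars give the mean and SD of 6 libraries (not drawn for miR-223-3p). miR-146b-5p has a median of 31902 RPM in the amygdala and 22374 RPM in the ventral striatum, while miR-223-3p lies at 0 in 40 of the 48 libraries, and the treatment groups overlap for every name.

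**Figure D2:**
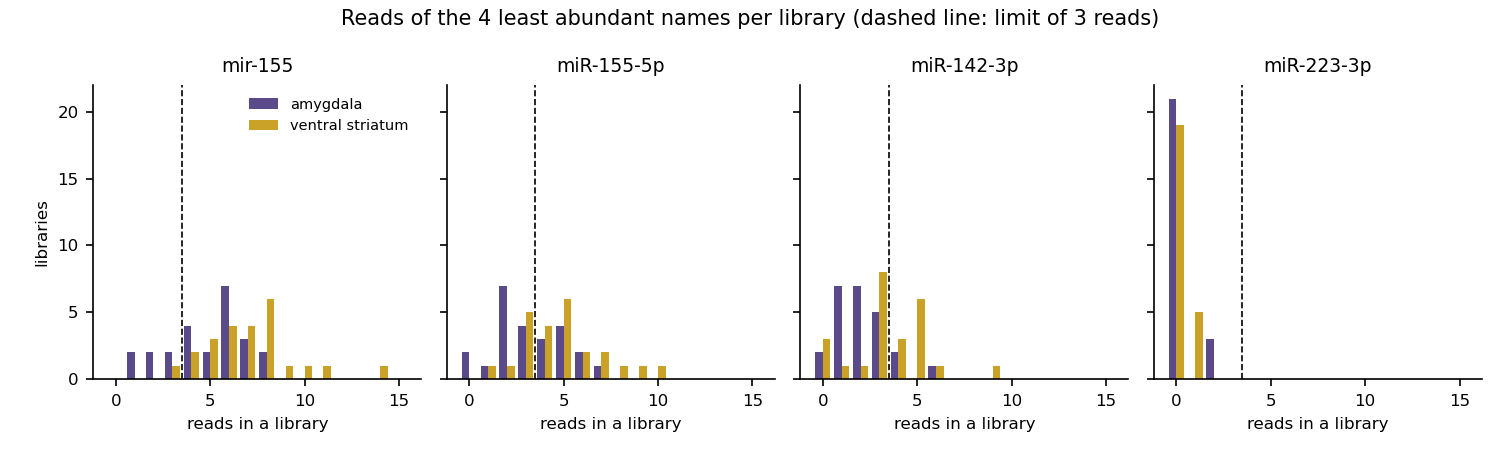
Number of libraries (vertical axis) with a given number of reads (horizontal axis) for the 4 least abundant names, amygdala and ventral striatum side by side; the dashed line marks the limit of 3 reads. mir-155 exceeds the limit in 41 of 48 libraries, miR-155-5p in 27, miR-142-3p in 14 and miR-223-3p in 0.

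The arms of the mir-142 hairpin were recovered very unequally. miR-142-5p had 9991 reads over the 48 libraries and miR-142-3p had 134, so the 3p arm made up 1.32% of the reads of both arms, from 1.05% in the amygdala to 1.57% in the ventral striatum. Both arms are loaded in blood cells, and miR-142-3p is the form most often studied there. The arms also accounted for a small part of what was assigned to the hairpin: 38.3% of the reads under the precursor name mir-142 were under the names of its arms (31.2% to 46.5% by library). The other hairpin reads cannot be assigned to an arm here, so the 1.32% holds only for reads under the arm names. That share was 45% for mir-21, 62.4% for mir-146a and 98.4% for mir-146b, against a median of 82.5% over the 203 hairpins compared (quartiles 36.3% and 97.7%).

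The name mir-155 is not an independent reading of the precursor. Small RNAs of mature length were purified before sequencing, and mir-155 had at least as many reads as miR-155-5p in each of the 48 libraries. In all, the reads of miR-155-5p came to 67.9% of those of mir-155, so the values of the pair are not separate measurements. Their correlation across libraries carries that overlap.

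Whether levels differed between the regions was tested with limma on log2(RPM + 1) over all 937 names that passed the filter on low values, of which 7 were followed here. miR-146b-5p was higher in the amygdala, miR-21-5p was higher in the ventral striatum, and the other 5 tested names did not pass the adjusted threshold of 0.05. Over all names tested, 8.54% were called higher and 21.1% lower in the amygdala, so 1 call of 7 in each direction is close to the background. The median difference of the 7 was -0.12 and that of all names -0.08 on the log2 scale. Of the 278 names called, 28.8% were higher in the amygdala, and after median-ratio rescaling 47.6% of 225 were. The pools of both regions were drawn from the same rats, and the labels do not say which. Consecutive library numbers join a ventral striatum and an amygdala library of one sex and treatment (24 pairs). The main test treats all libraries as separate samples. An alternative took these pairs as a random block (consensus correlation 0.05).

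miR-146b-5p had 19477, 31902 and 40239 RPM as its lowest, median and highest values in the 24 amygdala libraries and 17498, 22374 and 31150 RPM in the 24 ventral striatum libraries. The ranges overlapped, but 13 amygdala libraries were above every ventral striatum library. The means were 31743 ± 5945 and 23239 ± 4019 RPM, which was 36.6% higher in the amygdala, a difference of 0.44 ± 0.08 on the log2 scale (SE, 95% interval 0.27 to 0.62, adjusted p = 0.000126). miR-146a-5p, with the same seed, had 1385 ± 289 RPM in the amygdala and 1266 ± 206 RPM in the ventral striatum, and its difference of 0.12 ± 0.09 did not pass (adjusted p = 0.347, 95% interval -0.07 to 0.31). miR-146a-5p therefore made up 4.21% of the reads of the pair in amygdala libraries and 5.18% in ventral striatum libraries.

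miR-21-5p had 356, 519 and 764 RPM as its lowest, median and highest values in the amygdala and 507, 709 and 1022 RPM in the ventral striatum. Here 11 amygdala libraries were below every ventral striatum library. The difference was -0.43 ± 0.08 on the log2 scale (95% interval -0.60 to -0.26, adjusted p = 0.000155), and the mean differed by -25.4%. miR-142-5p had 164, 239 and 350 RPM in the amygdala and 154, 211 and 270 RPM in the ventral striatum. Its difference of 0.19 ± 0.07 had an unadjusted p of 0.0153 and an adjusted p of 0.0515 with limma, just short of the threshold. It passed after median-ratio rescaling (0.26, adjusted p = 0.00663) and with consecutive library numbers as a random block. It also passed in 12 of 48 fits that left out 1 library.

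**Figure D3:**
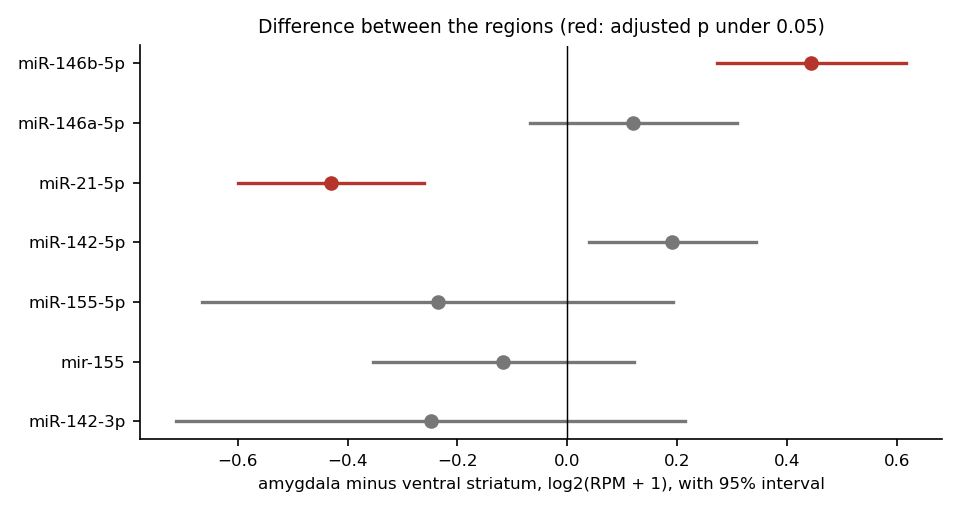
Difference between the regions (amygdala minus ventral striatum, log2(RPM + 1), horizontal axis) for the 7 names tested, with 95% intervals; red marks an adjusted p under 0.05. miR-146b-5p lies at 0.44 and miR-21-5p at -0.43, with intervals clear of 0, and the intervals of mir-155, miR-155-5p, miR-142-3p and miR-146a-5p include 0, while that of miR-142-5p lies above 0 without an adjusted p under 0.05.

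The 3 remaining names that were tested had few reads and wide intervals. miR-155-5p had means of 4.13 and 4.64 RPM in the amygdala and ventral striatum, and its difference was -0.24 ± 0.21 (adjusted p = 0.430). mir-155 had means of 5.29 and 5.71 RPM, and its difference was -0.12 ± 0.12 (adjusted p = 0.489). miR-142-3p had means of 2.51 and 3.42 RPM, and its difference was -0.25 ± 0.23 (adjusted p = 0.445). miR-223-3p, the myeloid miRNA, was above 0 in 3 amygdala and 5 ventral striatum libraries, under the 6 needed, and was not tested.

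Marker miRNAs of other cell types differed between the regions too. The 3 oligodendrocyte markers (miR-219a-5p, miR-219a-2-3p and miR-338-3p) were all called lower in the amygdala (-0.49, -0.59 and -0.44 on the log2 scale), and their summed level ranged from 4671 to 15452 RPM there and from 6218 to 15920 RPM in the ventral striatum. Of the 3 choroid plexus markers, miR-204-5p and miR-211-5p were called higher in the amygdala (1.13 and 0.65), with summed ranges of 3127 to 122693 RPM and 3842 to 6998 RPM. Of the neuronal markers, miR-128-3p was called higher in the amygdala (0.41), and miR-124-3p and miR-9a-5p were not called. Red blood cell markers had 0 of 3 called, and of the 4 blood vessel markers miR-145-5p was called lower in the amygdala (-0.26). The part of these cell types in the differences of miR-146b-5p and miR-21-5p was not tested. Without the 13 amygdala libraries over 10000 RPM of miR-204-5p, a choice made after the values were seen, the differences were 0.55 (adjusted p = 0.00130) for miR-146b-5p and -0.49 (adjusted p = 0.00147) for miR-21-5p. Without the 7 libraries under 600000 reads they were 0.37 (adjusted p = 0.00628) and -0.34 (adjusted p = 0.00640).

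The other names from the same hairpins and other immune-cell miRNAs gave a context for these values. Of the 7 other arms and precursors tested of 10 listed, mir-146b was called higher (0.46) and mir-21 lower (-0.46) in the amygdala, and these share reads with the mature names. miR-21-3p, the passenger arm of mir-21, had means of 32.3 and 39 RPM in the amygdala and ventral striatum (difference -0.29, adjusted p = 0.108). Of the 11 tested of 14 other immune-cell names, 4 were called, all lower in the amygdala: miR-342-3p (-0.42), mir-342 (-0.37), miR-652-3p (-0.72) and mir-652 (-0.69). These are 2 hairpins, each with an arm that shares its reads, and 21.1% of all names were called lower. miR-150-5p, a lymphocyte miRNA, had 398 and 386 RPM in the amygdala and ventral striatum (difference 0.04, adjusted p = 0.80). The myeloid miRNA miR-511-5p was listed at 0 in 38 of 48 libraries, miR-147 in 37, and the precursor name mir-223 in 23.

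Library-to-library variation within groups was compared through deviations of log2(RPM + 1) from the 16 means of region, sex and treatment, as a description without a test, over 48 libraries that share depth and scaling. The names most like miR-21-5p were miR-219a-5p (r = 0.85) and miR-93-5p (r = 0.84). The other oligodendrocyte markers followed the same pattern, with r = 0.78 for miR-219a-2-3p and r = 0.80 for miR-338-3p, whereas the neuronal markers miR-128-3p, miR-124-3p and miR-9a-5p had r = -0.66, -0.44 and -0.17. For miR-146b-5p the signs were opposite, with r = 0.66, 0.38 and 0.16 for these neuronal markers and r = -0.52 for miR-219a-5p. Of the blood vessel markers, miR-126a-5p had r = 0.46 with miR-21-5p and r = -0.58 with miR-146b-5p. For miR-126a-3p, miR-143-3p and miR-145-5p, r was 0.20, 0.23 and 0.21 with miR-21-5p. With miR-146b-5p their r was -0.22, 0.19 and 0.18, so the signs on that list were mixed. miR-146b-5p was most like miR-30d-5p (r = 0.80) and let-7g-5p (r = 0.78). miR-146a-5p was most like miR-351-5p (r = 0.74) and miR-423-5p (r = 0.66), and had r = -0.04 with miR-219a-5p. miR-142-5p was most like miR-23a-3p (r = 0.53) and miR-351-5p (r = 0.48), and its r with the red blood cell markers was 0.25 to 0.30. For the 4 names with few reads the highest r was 0.61 (mir-155 with mir-542-1), 0.47 (miR-155-5p with miR-1224), 0.51 (miR-142-3p with miR-218a-5p) and 0.54 (miR-223-3p with miR-3557-5p), each the highest of 283 precursor or 303 mature candidates and in sparse values.

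**Figure D4:**
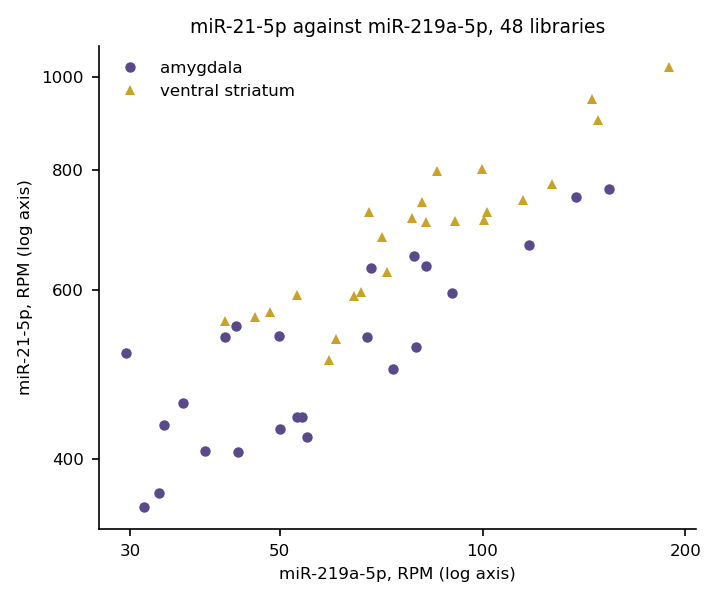
miR-21-5p (vertical axis) against the oligodendrocyte marker miR-219a-5p (horizontal axis), both in RPM on log axes, 1 point per library. Libraries with more miR-219a-5p have more miR-21-5p in both regions (r = 0.85 in deviations from group means).

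Effects of prenatal ethanol and of social enrichment were then compared within each region, between 6 libraries and 6 in each simple comparison. None of the 7 tested names passed an adjusted p of 0.05 in any of the 14 treatment comparisons within a region or the 2 interactions with region (limma with Benjamini-Hochberg adjustment; smallest adjusted p of a followed name 0.843). The background was alike, with 0.0% of all names called by adjusted p in 15 of these 16 comparisons and 0.213% (2 of 937) in the interaction of region and ethanol. At an unadjusted p under 0.05, 6 of the 112 pairs of name and comparison passed (5.36%), against 3.19% over all names, and all 6 belonged to mir-155 and miR-142-3p, names with few reads. Treatment groups overlapped for each followed name in each of the 8 simple comparisons. The share of all names with such overlap is not given here, so this is not read as particular to these names. For miR-223-3p the overlap follows from its values at 0.

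For the 4 abundant names no treatment comparison had an unadjusted p under 0.05 with limma (smallest 0.119), which does not show that they were unchanged. miR-146b-5p, the most abundant, had group means of 31845 (control, non-enriched), 31952 (control, enriched), 29338 (ethanol, non-enriched) and 33836 RPM (ethanol, enriched) in the amygdala, with SDs of 4219 to 8575 RPM. In the ventral striatum the means were 22009, 24468, 22818 and 23664 RPM in the same order. The 8 simple differences of miR-146b-5p lay between -0.16 and 0.24 on the log2 scale, and the smallest unadjusted p was 0.182. miR-146a-5p had means of 1475, 1464, 1371 and 1230 RPM in the amygdala and 1232, 1307, 1228 and 1296 RPM in the ventral striatum in that order. Its differences lay between -0.25 and 0.12. The lowest was the ethanol effect in enriched rats in the amygdala (unadjusted p = 0.224 with limma, exact permutation p = 0.0541).

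miR-21-5p had means of 501, 530, 571 and 490 RPM in the amygdala and 636, 695, 736 and 738 RPM in the ventral striatum, in the order control non-enriched, control enriched, ethanol non-enriched and ethanol enriched. Its differences lay between -0.24 and 0.21 (smallest unadjusted p 0.183). miR-142-5p, the arm with enough reads to follow, had means of 254, 242, 244 and 226 RPM in the amygdala and 203, 224, 213 and 198 RPM in the ventral striatum, with differences between -0.19 and 0.15. Over these 4 names and 8 simple comparisons, the 95% intervals lay within -0.67 and 0.61 on the log2 scale, with a median half-width of 0.36. For miR-155-5p, mir-155 and miR-142-3p the median half-width was 0.70.

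**Figure D5:**
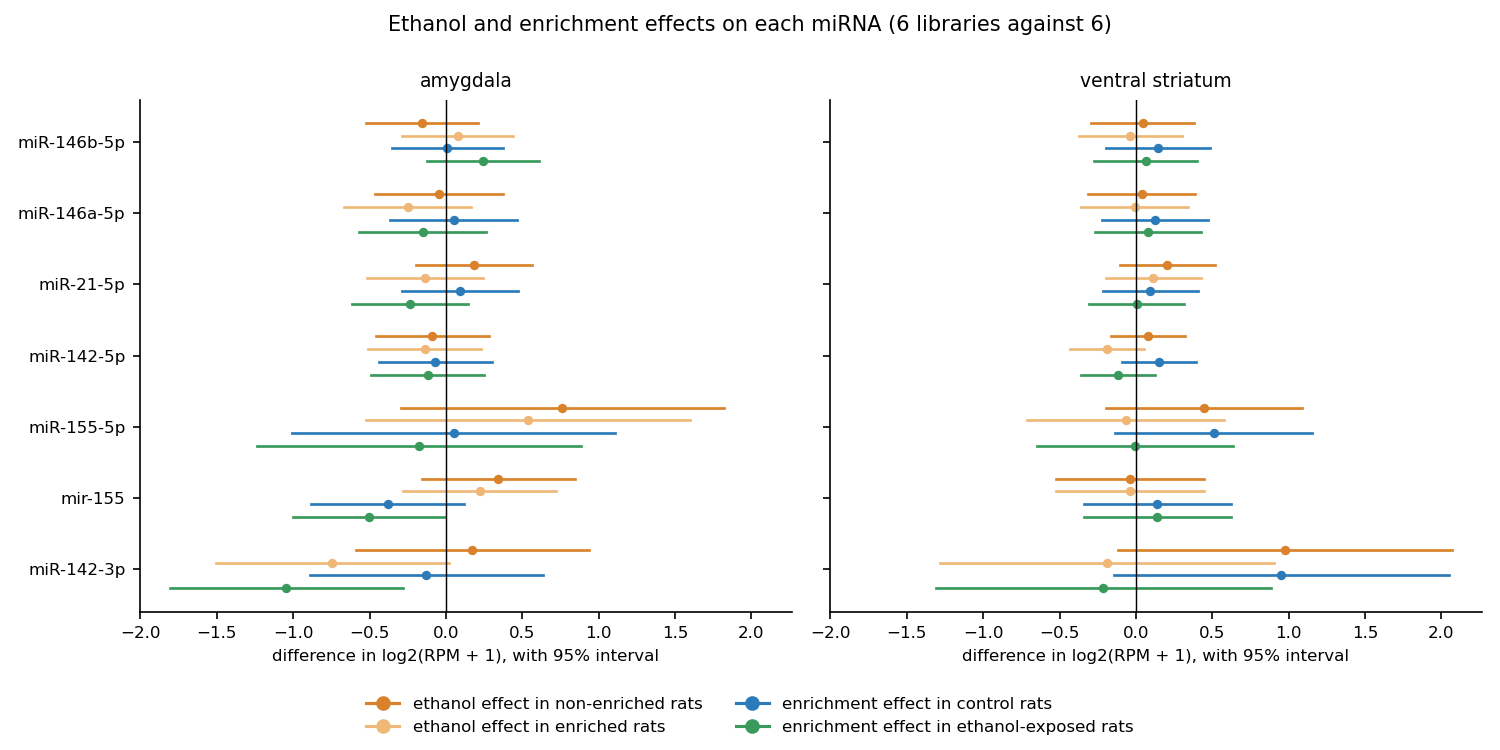
Ethanol and enrichment effects (difference in log2(RPM + 1), horizontal axis) with 95% intervals for the 7 names tested, amygdala left and ventral striatum right. Intervals of miR-146b-5p, miR-146a-5p, miR-21-5p and miR-142-5p are narrow and all include 0, those of miR-155-5p and miR-142-3p are wide, and for the enrichment effect in ethanol-exposed rats in the amygdala the intervals of miR-142-3p (-1.81 to -0.28) and, barely, mir-155 lie below 0 without passing the adjusted threshold.

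miR-142-3p had its lowest unadjusted p in the enrichment effect in ethanol-exposed rats in the amygdala. The lowest, median and highest values were 1.61, 3.23 and 4.89 RPM in the non-enriched and 0, 1.27 and 3.09 RPM in the enriched group. These values stood for 16 reads in 6 libraries against 7 reads in 6 libraries, 1 to 4 and 0 to 3 reads per library, so both groups were under the limit of 3 reads on average and no fold is given. Of the enriched libraries, 4 of 6 were below every non-enriched library. On the log2(RPM + 1) scale the difference was -1.05 ± 0.36 (unadjusted p = 0.0101, adjusted p = 1 with limma), and an exact permutation test of the mean RPM, two-sided, gave an unadjusted p of 0.0216. In that comparison 2 names followed here had an unadjusted p under 0.05, against 2.54% of all 904 names tested. The study lists miR-142-3p for this comparison from these same libraries, so its direction is not independent evidence. miR-142-5p, from the same hairpin and with 65 to 312 reads per library in these groups, had medians of 248 and 207 RPM in the same groups, which overlapped. Without the 7 amygdala libraries under 600000 reads, the difference of miR-142-3p was -0.57 (unadjusted p = 0.0914). The summed choroid plexus markers ranged from 3529 to 122693 RPM in the non-enriched and from 3966 to 36609 RPM in the enriched group, with 0 of 3 at an unadjusted p under 0.05, and the summed red blood cell markers reached 37.9 and 46 RPM. The part of depth and of these cell types in the values of miR-142-3p was not tested.

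mir-155 was the other name in that comparison, with lowest, median and highest values of 5.29, 7.02 and 9.28 RPM in the non-enriched and 2.39, 4.91 and 7.66 RPM in the enriched ethanol-exposed rats. Its difference was -0.50 ± 0.24 (unadjusted p = 0.0483, adjusted p = 1 with limma, exact permutation p = 0.0476), and without the 7 libraries under 600000 reads it was -0.21. miR-155-5p, the mature strand, had means of 5.51 and 4.63 RPM in the non-enriched and enriched groups (difference -0.18 ± 0.50, unadjusted p = 0.732), and the groups overlapped. Over both exposures in the amygdala, mir-155 (6.19 RPM non-enriched, 4.40 RPM enriched, difference -0.44 ± 0.17, unadjusted p = 0.0170) and miR-142-3p (3.11 and 1.92 RPM, difference -0.59 ± 0.26, unadjusted p = 0.0344) were again the names with an unadjusted p under 0.05, where 3.1% of all names had one. The ethanol-exposed libraries are part of both comparisons. Both adjusted p-values were 1 with limma, and without the 7 libraries under 600000 reads the differences were -0.17 and -0.38.

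From these libraries and a microarray of the same pools, the study also lists mir-155 for the ethanol effect in non-enriched rats in the amygdala. Its lowest, median and highest values were 3.97, 5.36 and 6.44 RPM in control and 5.29, 7.02 and 9.28 RPM in ethanol-exposed rats, 30 reads against 36, and 3 of the 6 ethanol libraries were above every control library. The difference was 0.34 ± 0.24 (unadjusted p = 0.165, adjusted p = 0.843 with limma, exact permutation p = 0.0758). The ratio of the group means was 1.34, which is also the fold change that the study lists. Its threshold for listing was looser and unadjusted, so the p-values here do not repeat its criterion. miR-155-5p had 16 reads in control and 23 in ethanol-exposed non-enriched rats, with medians of 3.80 and 4.61 RPM. Of the choroid plexus markers, miR-204-5p was over 100000 RPM in 2 libraries of the ethanol group, and without them the difference of mir-155 was 0.36 (unadjusted p = 0.206).

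The study further lists miR-155-5p, again with the microarray, for the enrichment effect in control rats in the ventral striatum. The lowest, median and highest values were 1.12, 3.55 and 5.09 RPM in non-enriched and 1.93, 4.69 and 9.47 RPM in enriched rats, 22 reads against 35. The means were 3.39 RPM in non-enriched and 5.46 RPM in enriched rats. The difference was 0.51 ± 0.31 (unadjusted p = 0.114, adjusted p = 1 with limma, exact permutation p = 0.165). Here too the p-values do not repeat the looser, unadjusted criterion of the study. mir-155 had 40 and 48 reads in the same groups, with medians of 5.26 and 5.32 RPM, and miR-142-3p had 13 and 24 reads. Of the blood vessel markers, miR-145-5p differed between these groups in the same direction at an unadjusted p of 0.0155 (0.54 on the log2 scale, adjusted p = 1 with limma), 1 of 4 on that list. Its part in the values of miR-155-5p was not tested.

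The tests of whether an effect differed between the regions gave no adjusted call for the names followed here. For enrichment, mir-155 (-0.58 ± 0.23, unadjusted p = 0.0175) and miR-142-3p (-0.96 ± 0.46, unadjusted p = 0.0430) had a lower effect in the amygdala than in the ventral striatum, with adjusted p-values of 1 in limma. Of all names, 2.56% had an unadjusted p under 0.05 in that interaction. Over both exposures, enriched and non-enriched means of mir-155 were 6.08 and 5.34 RPM in the ventral striatum, and those of miR-142-3p were 3.91 and 2.93 RPM. Without the 7 libraries under 600000 reads the interactions were -0.31 and -0.75, with unadjusted p-values of 0.193 and 0.146. The interaction of ethanol and enrichment reached no unadjusted p under 0.05 for the followed names in either region.

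miR-223-3p could be described by its few reads alone. In the amygdala its 6 reads were in 3 libraries, 2 of control enriched and 1 of ethanol-exposed enriched rats, with 2 reads each. In the ventral striatum its 5 reads were in 5 libraries, 1 of control non-enriched, 2 of control enriched and 2 of ethanol-exposed enriched rats. Non-enriched ethanol-exposed rats had 0 reads of 4664656 in the amygdala and 0 of 6290831 in the ventral striatum. All these values were at or under the limit of 3 reads per library.

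The other arms and precursors of these hairpins, and the other immune-cell miRNAs, had 0 adjusted calls and 0 at an unadjusted p under 0.05 with limma in the 16 treatment comparisons. In the amygdala 7 and 10 of them were tested, and in the ventral striatum 7 and 11. Over all names, 3.19% had an unadjusted p under 0.05. Adjusted calls over all names were limited to 0.213% in the interaction of region and ethanol. Precursors and arms of a hairpin share reads, so these names are not separate measurements. Over the 16 comparisons their median differences lay between -0.09 and 0.15 on the log2 scale for the other arms and precursors and between -0.17 and 0.15 for the other immune-cell names. The lowest median of the immune-cell names and the highest of the other arms and precursors were both in the enrichment effect in control rats in the ventral striatum (-0.17 and 0.15), where the median of all names was 0.02.

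Relations between the followed names were tested across the 24 libraries of each region, 10 relations in all, with 100000 permutations. miR-155-5p and mir-155 rose and fell together both in the amygdala (Pearson r = 0.63, permutation p = 0.000950, adjusted p = 0.00475; Spearman rho = 0.67, p = 0.000510) and in ventral striatum libraries (r = 0.69, permutation p = 0.000220, adjusted p = 0.00220; rho = 0.70, p = 0.000250), and r was 0.73 and 0.72 without the 2 libraries farthest from the median. These names share reads. miR-146a-5p and miR-146b-5p, which share a seed but come from different chromosomes, had r = 0.45 in the amygdala (permutation p = 0.0283, adjusted p = 0.0778; rho = 0.48, p = 0.0185, adjusted p = 0.0462) and r = 0.43 in the ventral striatum (permutation p = 0.0311, adjusted p = 0.0778; rho = 0.37, p = 0.0775, adjusted p = 0.129). The arms miR-142-3p and miR-142-5p had r = 0.42 in the amygdala (permutation p = 0.0396, adjusted p = 0.0792; rho = 0.50, p = 0.0145, adjusted p = 0.0462) and r = 0.21 in the ventral striatum (permutation p = 0.325; rho = 0.13, p = 0.551). In the amygdala both relations thus passed 0.05 after adjustment by rank and not by Pearson's r. For these pairs r without the 2 farthest libraries was 0.42 and 0.38 for the miR-146 pair and 0.34 and 0.31 for the arms.

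miR-142-3p was also set against blood. With the red blood cell marker miR-451-5p it had r = 0.28 in the amygdala (permutation p = 0.185, adjusted p = 0.277; rho = 0.37, p = 0.0776) and r = 0.05 in the ventral striatum (permutation p = 0.828; rho = 0.07, p = 0.747), and 0.34 and 0.15 without the 2 farthest libraries. With miR-223-3p it had r = -0.17 in the amygdala (permutation p = 0.415; rho = -0.27, p = 0.207) and r = 0.27 in the ventral striatum (permutation p = 0.194; rho = 0.25, p = 0.252), values that rest on 3 and 5 libraries above 0. Without the 2 farthest libraries these were -0.40 and 0.23.

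Levels in females and males were compared as a description without a test. In the amygdala miR-21-5p had 555 ± 133 RPM in 12 female and 491 ± 85.8 RPM in 12 male pools, and in the ventral striatum 740 ± 149 and 662 ± 104 RPM (SD). miR-142-5p had 229 ± 36.8 and 255 ± 55.9 RPM in the amygdala and 209 ± 27.5 and 210.0 ± 27.1 RPM in the ventral striatum. miR-146b-5p had 30482 and 33004 RPM in the amygdala and 23323 and 23156 RPM in the ventral striatum. The differences between the sexes were at most 0.605 of the within-sex SD for all 8 names.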

How the data were processed

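Small RNAs of mature length were gel purified from 48 RNA pools and sequenced (TruSeq Small RNA kit, MiSeq). The authors trimmed low-quality bases, aligned to Rn5 with Bowtie, quantified miRBase names in Partek Flow and deposited a normalized signal per name, described as RPM. It added up to 1000000 over mature and again over precursor names in every library, so the tests designed for RPM were kept, and levels were compared within one kind of name. Lines sharing a name were summed. Values divided by the smallest common step were whole, within 0.1, for 92.1% to 99.5% of mature and 88.1% to 94.3% of precursor values. These reads served for description, and no count model was fitted.

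A name entered the tests of a region when 6 or more of its 24 libraries were above 0. Tests used log2(RPM + 1), which understates changes of low names, and limma 3.58.1 under R 4.3.3 (lmFit, contrasts.fit, eBayes with trend, two-sided, Benjamini-Hochberg over all names). The 8 cells of sex and treatment were the groups, with effects averaged over the sexes, and regions were compared across 16 cells of 48 libraries. The p-values measure the spread between pools only. Libraries were sequenced in 6 sets of 8, and the labels do not say which shared a set, so no batch term was fitted and a part of the sets in any difference cannot be told apart. Exact tests used all 924 splits of 12 libraries (scipy 1.17.1, numpy 2.4.6, pandas 2.3.3, Python 3.11.15). The calculations were tested on simulated data.

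Differences are given with errors for an unadjusted p under 0.05, for the regions and for 3 pairs of name and comparison that the study lists on these libraries, and the 2 most similar names are given for each. The followed names and the lists were chosen with earlier results of these data known. The closing section gives the alternatives. miR-486, miR-208a-3p and miR-155-3p were not analysed here.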

Additional observations from a re-analysis of the deposited data

Results flagged for a closer look

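Among 61 groups of 6 libraries with some spread, 2 held 1 library far from the other 5, where about 1 group in 20 would by chance. Both concern miR-223-3p, and in both the other 5 libraries were at 0. With 5 libraries at 0 any value above 0 is flagged, so the rate of 1 in 20 does not apply to these groups. In ethanol-exposed, enriched rats, 1 amygdala library of a male pool had 2.10 RPM, which was 2 reads. In control, non-enriched rats, 1 ventral striatum library of a female pool had 0.881 RPM, which was 1 read. Both values were under the limit of 3 reads.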

How the results depend on the processing

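The alternatives were other pseudocounts (10 or 0.1), testing all names, requiring a mean of 10 RPM, median-ratio rescaling, testing mature names alone, RPM without logs or moderation, the replicate block, fits of the compared libraries alone, neighboring library numbers as a random block, and leaving out each library. Leaving out libraries with much miR-204-5p or few reads was added after the data were seen. Each gave 0 adjusted calls for the followed names in every treatment comparison it was run on. Between the regions 2 or 3 of these names were called, the third being miR-142-5p. It passed with a mean of 10 RPM required (adjusted p = 0.0409), with median-ratio rescaling (0.00663), on RPM without logs (0.0436), with the replicate block (0.0168, giving 3 calls), with the random block (0.0414), and in 12 of 48 fits without 1 library, 8 of them without an amygdala and 4 without a ventral striatum library (adjusted p over all 48 from 0.0117 to 0.0881). Of the followed names, none of the regional differences, and none of the treatment differences with an unadjusted p under 0.05 or on the study's lists, changed sign where recomputed. Alternatives were not run for single values of the markers, the related lists or the treatment effects of the abundant names. Of same-numbered libraries, 33 of 84 pairs in the amygdala and 31 of 84 in ventral striatum correlated over 0.1 (median r 0.03 and -0.01). Differently numbered pairs were not compared, so this does not show whether the replicate numbers pair the libraries. Replicate 2 of the male amygdala libraries was shallow in each of the 4 groups (439330, 544042, 372298 and 363141 reads). Apart from miR-142-5p, the replicate block changed no adjusted call. By Pearson's r, 3 relations passed an adjusted p of 0.05 in deviations from the 8 cell means and not in the levels: miR-146a-5p with miR-146b-5p in the amygdala (r = 0.56) and ventral striatum (r = 0.46), and miR-142-3p with miR-451-5p in the amygdala (r = 0.48). The cause was not tested. With a mean of 10 RPM required, mir-155, miR-155-5p and miR-142-3p gave no value. The number of followed names with an unadjusted p under 0.05 was less steady than the adjusted calls. Leaving out 1 library, it ranged from 1 to 3 for the enrichment effect in ethanol-exposed rats in the amygdala. It ranged from 1 to 2 over both exposures there, and from 1 to 2 for the interaction of region and enrichment. The main fits gave 2 in each. Without 1 library, the enrichment effect in ethanol-exposed rats in the amygdala ranged from -1.27 to -0.77 for miR-142-3p and from -0.65 to -0.31 for mir-155, and the enrichment effect of miR-155-5p in control rats in the ventral striatum from 0.29 to 0.70. The regional differences that were not called ranged from 0.07 to 0.17 for miR-146a-5p, from -0.30 to -0.13 for miR-155-5p and from -0.16 to -0.07 for mir-155. The low read numbers of mir-155, miR-155-5p, miR-142-3p and miR-223-3p limit which of their treatment effects can be seen.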
